A study of Mus musculus with 32 samples.

Results

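Endothelial cells sorted on CD31 from hind limb muscle were compared between mice with an inducible DUX4 gene and wild-type (WT) mice, using all 7 CD31 libraries among the 32 RNA-seq libraries of the series. The 4 CD31DUX libraries carried DUX4 as the inducible gene and the 3 CD31WT libraries did not, and the labels give doxycycline chow as the treatment of every mouse, WT included. Each library came from 75000 sorted cells. A second sort, on Pdgfra, gave 4 PDGDUX and 3 PDGWT libraries of fibro-adipogenic progenitors (FAPs), and whole muscle of both genotypes was sequenced at 2 and 16 weeks (18 libraries). The promoter that drives DUX4, the strain, age and sex of the mice, the time point of the sorted cells, and whether each library had its own animal are not stated in the labels used here. The p-values therefore measure the spread between these libraries, which may be in part technical.

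DUX4 is a human transcription factor of the early embryo whose misexpression in muscle underlies facioscapulohumeral dystrophy. CD31, the product of Pecam1, is an adhesion molecule of endothelial cells, which line blood and lymphatic vessels. Capillary endothelium of muscle takes up fatty acids released from circulating lipoproteins, while lymphatic endothelium drains fluid and guides immune cells with the chemokine CCL21. FAPs are the connective tissue cells between the fibres, and they make much of the matrix of muscle.

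Libraries held 15.7 to 20.7 M estimated counts in CD31DUX and 15.2 to 17.2 M in CD31WT, so that 3 counts were worth 0.131 to 0.165 and 0.156 to 0.177 CPM (TMM-normalised counts scaled to library size). The label was checked against the markers that define it. Pecam1 stood at 1060, 855, 875 and 911 CPM in CD31DUX and at 1180, 1400 and 1150 CPM in CD31WT, against at most 63.7 CPM in any PDG library. Cdh5, the cadherin of endothelial junctions, stood at 208, 205, 187 and 176 CPM in CD31DUX and at 321, 320 and 313 CPM in CD31WT. Every CD31 library thus carried both markers at a high level, with CD31DUX below CD31WT. Libraries of a group differed from each other by far more than sampling noise (chi-square per degree of freedom 20.2 to 65.9 over all sorted groups), and each was counted as 1 sample.

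RNA of other cell types was present and differed between the groups. The summed level of 19 FAP markers was 33700, 39900, 37300 and 37800 CPM in CD31DUX, against 14900, 11200 and 10800 CPM in CD31WT. CD31WT replicate 1 stood apart from the other CD31WT libraries by its macrophage genes, with Adgre1, a macrophage surface receptor, at 22.2 CPM against 1.73 and 0.946 CPM in CD31WT replicates 2 and 3. All 3 CD31WT libraries held kidney tubule genes (129 to 411 CPM summed over 18 listed genes), whereas the 4 CD31DUX libraries held 3.05 to 10.1 CPM. Platelet and red cell genes summed to 1760 to 8980 CPM in CD31DUX and 16200 to 27600 CPM in CD31WT. The part of these differences in the results was not tested, and fewer cells of a type and less RNA per cell cannot be told apart in these libraries.

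**Figure D1:**
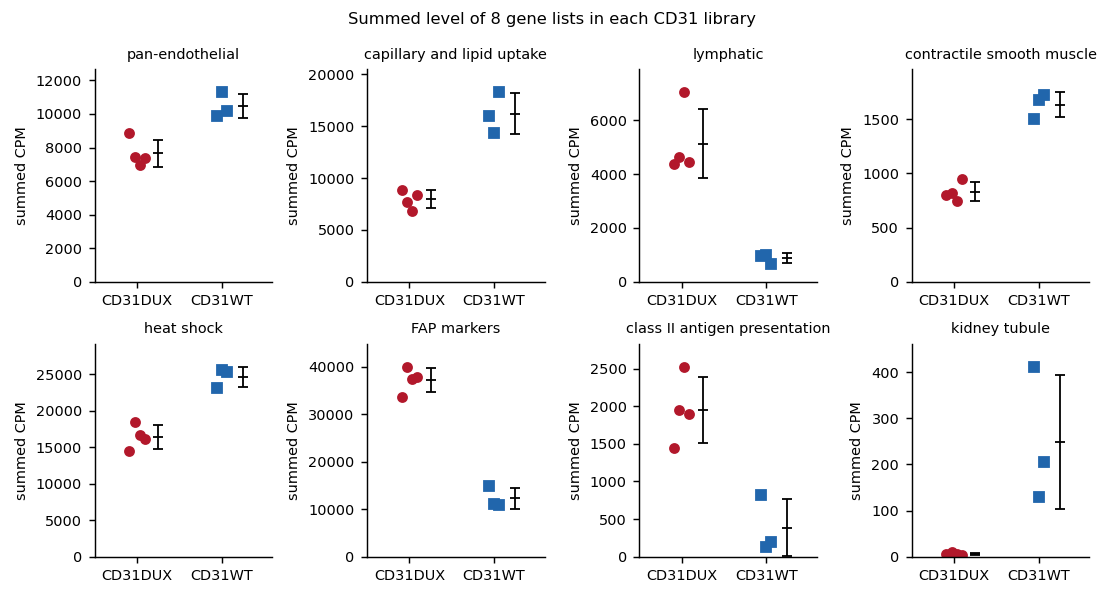
Summed level (CPM) of 8 gene lists in each of the 4 CD31DUX and 3 CD31WT libraries, with each point a library and, beside the points, the group mean with its SD. The lymphatic sums are 4360 to 7040 CPM in CD31DUX against 675 to 1010 in CD31WT, and the capillary sums are 6830 to 8870 CPM in CD31DUX against 14400 to 18300 in CD31WT.

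Of 17008 genes tested, 863 (5.07%) differed between CD31DUX and CD31WT at an adjusted p under 0.05 in edgeR's quasi-likelihood test, the rule by which a gene is called throughout. Of these, 633 (3.72%) were higher and 230 (1.35%) lower in CD31DUX. Every CD31DUX library lay above every CD31WT library for 1682 genes (9.89%) and below for 1392 genes (8.18%). The median log2 fold change over all tested genes was close to 0, at -0.00456.

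The direction of a call went with where the gene is normally expressed. Among the 8616 genes whose mean in CD31WT was at least that in PDGWT, 245 (2.84%) were called: 32 (0.371%) higher and 213 (2.47%) lower, and their median log2 fold change was -0.247. Among the 8392 genes lower in CD31WT than in PDGWT, 601 (7.16%) rose, 17 (0.203%) fell, and the median was 0.239. This split uses the CD31WT libraries, which are also the reference of the fold change. When it was made instead from all 7 CD31 against all 7 PDG libraries, 8792 genes leaned to CD31 cells, of which 73 were called higher and 181 lower (2.89% in all).

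The border of the split passed between Ncmap and Gclm on the CD31 side (17.6 and 107 CPM in CD31WT, against 17.4 and 105 CPM in PDGWT) and Rpl36 and Ubqln2 on the FAP side (150.3 and 13.4 CPM in CD31WT, against 151.1 and 13.6 CPM in PDGWT). Of the 633 genes called higher, 540 had a mean in CD31DUX no higher than in PDGDUX, and 93 had a mean above it. The same share over all tested genes was not counted, so these numbers have no background. By the WT means, 8392 of the 17008 tested genes were lower in CD31 cells than in FAPs. A fit of the 7 CD31 libraries alone called 715 genes in all, 302 of them on the CD31 side. The same 7 libraries, with the summed FAP markers as a covariate, gave 5 calls in all and 4 on the CD31 side. The marker sums of the groups do not overlap, so this covariate and the genotype cannot be told apart. A fit of all 14 sorted libraries with the summed Y-linked genes as a covariate called 450 genes in all and 83 on the CD31 side. These genes summed to 1.74 to 2.31 CPM in CD31DUX and to 2.23, 2.63 and 6.38 CPM in CD31WT replicates 1, 2 and 3. The Y-linked gene Ddx3y stood at 0 to 0.24 CPM in CD31DUX and 0.355 to 0.392 CPM in CD31WT. In these libraries 3 counts are worth 0.131 to 0.177 CPM. The covariate is thus low throughout and highest in CD31WT replicate 3, and whether it follows sex was not tested. Counts of calls also moved with single libraries. Without CD31WT replicate 3 they were 520 in all and 80 on the CD31 side. On the CD31 side they were 156, 129, 115 and 150 without CD31DUX replicates 1, 2, 3 and 4. Leaving out CD31WT replicate 2 gave the largest counts, 1091 in all and 289 on the CD31 side.

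The split of calls also depended on the scale. In the fit of the 7 CD31 libraries alone, the median log2 fold change was -0.00445, with 471 genes called higher and 244 lower. On the CD31 side 65 were higher and 237 lower. When these 7 libraries were scaled by the summed counts of 24 pan-endothelial genes, the median log2 fold change of all genes moved to 0.457. This scale was chosen after the data were seen. Then 2772 genes were called higher and 85 lower in CD31DUX, and on the CD31 side 633 were higher and 83 lower. Under that scale 97% of all calls and 88.4% of the calls on the CD31 side were higher.

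**Figure D2:**
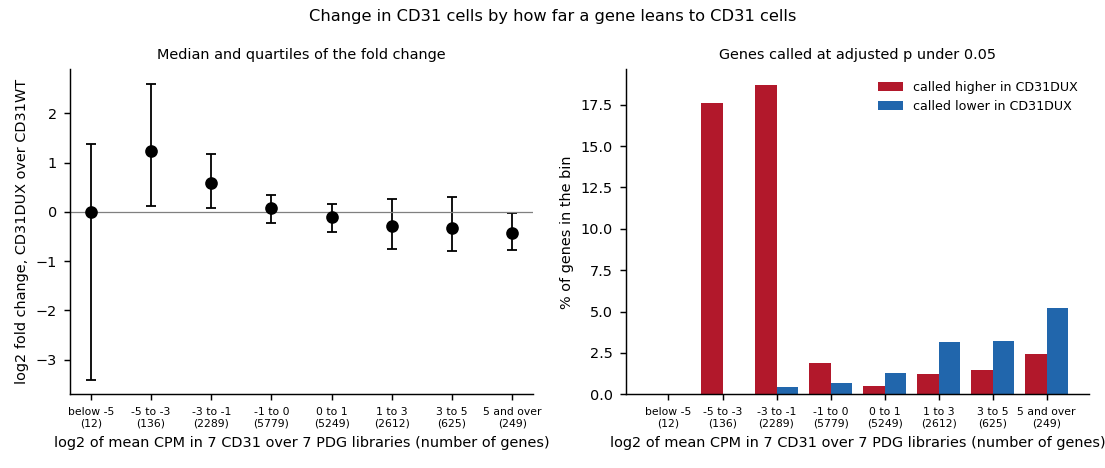
Genes grouped by the log2 ratio of their mean CPM in the 7 CD31 over the 7 PDG libraries (x axis, number of genes in parentheses), with the median and quartiles of the log2 fold change of CD31DUX over CD31WT (left) and the percentage of genes called higher or lower in CD31DUX (right). Where the log2 ratio lay from -5 to -3, the calls were 17.6% of genes upward and 0% downward, and where it was at least 5 they were 2.41% upward and 5.22% downward. The lowest group holds 12 genes.

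Lymphatic endothelial genes rose in CD31DUX: 6 of the 7 listed genes were called higher (background 3.72%) and 0 lower. All 7 had every CD31DUX library above every CD31WT library (background 9.89%). The background is the share over all genes tested in the same comparison. The median log2 fold change of the list was 2.14. Mmrn1, a matrix protein of lymphatic vessels (chromosome 6, 60924976 to 60989378), stood at 1120, 881, 1100 and 826 CPM in CD31DUX and at 122, 161 and 82.3 CPM in CD31WT. The groups lay far apart, with a log2 fold change of 3.01 ± 0.23 (SE) and an adjusted p of 1.79e-06 in edgeR.

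Reln, which encodes the secreted glycoprotein reelin, stood at 165, 191, 246 and 131 CPM in CD31DUX and at 51.5, 36.3 and 36.9 CPM in CD31WT. The groups did not overlap, and Reln rose by 2.14 ± 0.27 on the log2 scale (adjusted p = 0.000157, edgeR). Lyve1, a hyaluronan receptor of lymphatic endothelium that some macrophages also carry, stood at 575, 613, 875 and 563 CPM in CD31DUX and at 101, 106 and 51.9 CPM in CD31WT. Its rise of 2.93 ± 0.64 had an adjusted p of 0.0217 in edgeR. The call was lost without CD31DUX replicate 3, CD31WT replicate 1 or CD31WT replicate 3, with adjusted p of 0.0517 to 0.112.

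Flt4, the VEGF-C receptor that drives lymphatic growth, stood at 391, 289, 379 and 234 CPM in CD31DUX and at 78.6, 122 and 90.2 CPM in CD31WT (log2 1.74 ± 0.43, adjusted p = 0.0343, edgeR). Pdpn, a mucin-like membrane protein that FAPs also carry, stood at 35.9, 43.1, 42.5 and 46.3 CPM in CD31DUX and at 16.2, 18.9 and 23.6 CPM in CD31WT (log2 1.10 ± 0.27, adjusted p = 0.0256, edgeR). Neither gene overlapped between the groups. Each lost its call in 5 of the 7 refits that left out 1 library, with adjusted p of up to 0.149 for Flt4 and 0.0845 for Pdpn. Flt4 kept it without CD31DUX replicate 4 or CD31WT replicate 2, and Pdpn without CD31DUX replicate 1 or CD31WT replicate 3.

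Ccl21a encodes the chemokine that draws dendritic cells into lymphatic vessels, and its reads may be shared with near-identical copies, Gm21541 and Gm13304. It stood at 1950, 2490, 4240 and 2570 CPM in CD31DUX and at 537, 518 and 368 CPM in CD31WT (log2 2.57 ± 0.66, adjusted p = 0.0489, edgeR). Its call was lost in each of the 7 refits that left out 1 library (adjusted p 0.0595 to 0.198). The summed level of the CCL21 copies, a list written after values were seen, was 3300, 4150, 6830 and 4170 CPM in CD31DUX, against 870, 756 and 541 CPM in CD31WT.

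Prox1, the transcription factor that specifies lymphatic identity, did not pass the test. It stood at 123, 120, 154 and 90.1 CPM in CD31DUX and at 51, 51.3 and 22.2 CPM in CD31WT (log2 1.55 ± 0.49, adjusted p = 0.0939, edgeR). All 4 CD31DUX libraries lay above the 3 CD31WT libraries for this gene too. Called lymphatic genes numbered 2 without CD31DUX replicate 3 or CD31WT replicate 1, 3 without CD31DUX replicate 2 or CD31WT replicate 3, and 4 without any other single library.

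The lymphatic rise was also large relative to the endothelial content of each library. Per 100 CPM of pan-endothelial genes, lymphatic genes made 49.3 to 102 CPM in CD31DUX and 6.64 to 9.67 CPM in CD31WT. In the FAP sort, 0 lymphatic genes were called higher (background 1.23%) and Reln was called lower (background 1.77%). Reln was also the only lymphatic gene whose DUX4 effect was called different between CD31 and PDG cells. In whole muscle, 0 lymphatic genes were called higher at 2 weeks (background 11.2%) and 2 at 16 weeks, Ccl21a and Reln (background 14.1%).

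Capillary genes fell in CD31DUX. Of 15 genes of capillary identity and lipid uptake, 7 were called lower (background 1.35%) and 0 higher, and the median log2 fold change was -0.943. In 12 genes every CD31DUX library lay below every CD31WT library (background 8.18%). The summed level was 8870, 7740, 6830 and 8400 CPM in CD31DUX, against 16000, 14400 and 18300 CPM in CD31WT. Per 100 CPM of pan-endothelial genes it was 98.6 to 114 CPM in CD31DUX and 127 to 180 CPM in CD31WT.

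Gpihbp1 anchors lipoprotein lipase to the capillary wall (chromosome 15, 75596628 to 75599481). It stood at 309, 326, 239 and 349 CPM in CD31DUX and at 637, 692 and 1030 CPM in CD31WT, and it fell by 1.36 ± 0.26 on the log2 scale (adjusted p = 0.0047, edgeR). Lpl, which encodes that lipase, fell by 0.71 ± 0.18 (adjusted p = 0.0282, edgeR). Lpl is also strongly expressed in FAPs, at 1090 to 1720 CPM in PDGDUX and 1290 to 1590 CPM in PDGWT.

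Aqp1, a water channel of continuous capillaries, stood at 2190, 1790, 1380 and 1970 CPM in CD31DUX and at 4570, 3090 and 5130 CPM in CD31WT. The highest CD31DUX library lay below the lowest CD31WT library, and Aqp1 fell by 1.22 ± 0.23 (adjusted p = 0.00421, edgeR). Fabp4, a fatty acid carrier, stood at 2510, 2200, 2250 and 2330 CPM in CD31DUX and at 4970, 4200 and 4170 CPM in CD31WT (log2 -0.94 ± 0.24, adjusted p = 0.0337, edgeR).

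Tcf15, a transcription factor that with Meox2 directs fatty acid uptake in heart and muscle capillaries, stood at 93.2, 72.7, 61.6 and 73.2 CPM in CD31DUX and at 114, 164 and 185 CPM in CD31WT. It fell by 1.04 ± 0.23 (adjusted p = 0.0136, edgeR), whereas Meox2 had a log2 fold change of 0.21 ± 0.19 and overlapped between the groups. Timp4, a metalloprotease inhibitor, and Mgll, a lipase that splits monoglycerides, were the other called genes, with log2 fold changes of -1.47 ± 0.35 and -0.87 ± 0.22. The fatty acid translocase Cd36 had every CD31DUX library below every CD31WT library, at 1050 to 1300 CPM against 1990 to 2440 CPM, but did not pass the test (log2 -0.94 ± 0.29, adjusted p = 0.0774, edgeR).

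Gpihbp1 and Aqp1 kept their calls in all 7 refits that left out 1 library, while Fabp4 lost its call in all 7 (adjusted p 0.0685 to 0.119). Tcf15 lost its call without CD31DUX replicate 3 or CD31WT replicate 3, Timp4 in 6 refits, and Lpl and Mgll in 5 each. Timp4 kept it only without CD31DUX replicate 4 (adjusted p at most 0.11 in the rest), Lpl only without CD31WT replicate 1 or 2 (at most 0.215), and Mgll only without CD31DUX replicate 1 or CD31WT replicate 1 (at most 0.116). The number of capillary genes called lower was 2 without CD31DUX replicate 3 or CD31WT replicate 3, 3 without CD31DUX replicate 2, and 4 without CD31DUX replicate 1, CD31DUX replicate 4 or CD31WT replicate 2. With the Y-linked covariate it was 1, and the adjusted p of Gpihbp1 was 0.0599 (edgeR); called lymphatic genes were 3 in that fit. In the FAP sort the summed level was 1410 to 2060 CPM in PDGDUX and 1800 to 2030 CPM in PDGWT. There 6 of the 15 were called lower (background 1.77%) and 0 higher, and no difference between the sorts was called. Pan-endothelial genes also lay lower in that sort, at a summed 339 to 501 CPM in PDGDUX and 521 to 656 CPM in PDGWT. The part of this endothelial RNA in the capillary result of the FAP sort was not tested.

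**Figure D3:**
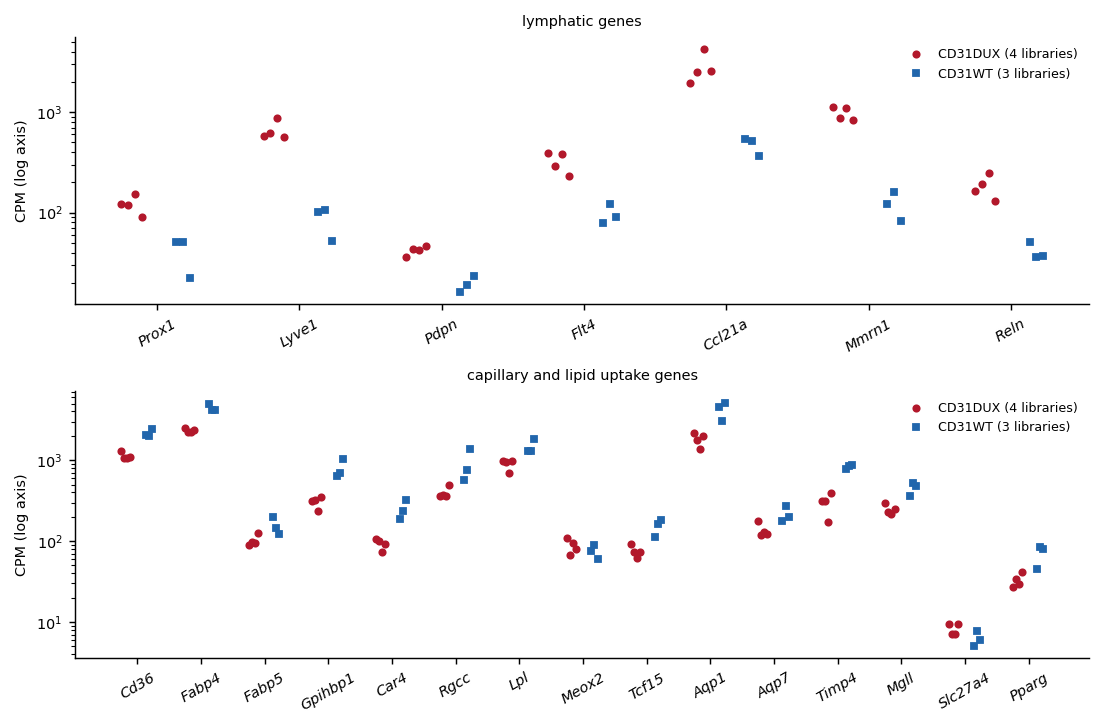
Level (CPM, log axis) of single lymphatic and capillary genes in the 4 CD31DUX (circles) and 3 CD31WT (squares) libraries. Mmrn1 lies at 826 to 1120 CPM in CD31DUX against 82.3 to 161 in CD31WT, and Aqp1 at 1380 to 2190 CPM in CD31DUX against 3090 to 5130 in CD31WT.

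Genes common to all endothelium did not pass the test, although most lay lower in CD31DUX. Of 24 pan-endothelial genes, 0 were called in either direction (background 5.07%), and the median log2 fold change was -0.432. In 13 of them every CD31DUX library lay below every CD31WT library (background 8.18%). Pecam1 had a log2 fold change of -0.43 ± 0.18 (adjusted p = 0.231, edgeR) and Cdh5 of -0.71 ± 0.23 (adjusted p = 0.0994, edgeR). Kdr, the main VEGF receptor, stood at 449, 407, 460 and 412 CPM in CD31DUX and at 524, 784 and 472 CPM in CD31WT (log2 -0.46 ± 0.25). The tight junction gene Cldn5 overlapped between the groups, at 225 to 321 CPM in CD31DUX and 236 to 331 CPM in CD31WT. A fit of the 7 CD31 libraries alone called 5 of the 24 lower, limma voom called 10 lower and DESeq2 1 lower, and 6 had an unadjusted edgeR p under 0.05, all of them lower.

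Arterial, Notch and junction genes held no edgeR calls. Of 13 arterial genes 0 were called by edgeR (5 at an unadjusted p under 0.05, 1 called lower by DESeq2 and 1 by limma). Of 13 genes of the Notch pathway 0 were called by edgeR (2 at an unadjusted p under 0.05, 1 lower by DESeq2 and 2 by limma). The same held for 10 genes of junctions and permeability (5 at an unadjusted p under 0.05, 2 lower by each of the other tools). Over all genes, 2993 had an unadjusted p under 0.05, against the 863 called.

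Among the growth factors of the VEGF family, Pgf, which encodes placental growth factor, moved in opposite directions in the sorts (chromosome 12, 85166635 to 85177790). In CD31 cells it stood at 92.6, 104, 128 and 144 CPM in CD31DUX and at 21.7, 20.1 and 39.9 CPM in CD31WT, a rise of 2.11 ± 0.29 on the log2 scale (adjusted p = 0.000273, edgeR). In FAPs it stood at 10.1, 8.55, 9.4 and 4.88 CPM in PDGDUX and at 129, 95.7 and 76.5 CPM in PDGWT, and fell by 3.61 ± 0.29. The groups did not overlap in either sort. The difference of the effects was 5.72 ± 0.41 (adjusted p = 5.14e-06, edgeR). Mean Pgf in CD31DUX was 1420% of that in PDGDUX, whereas mean Pgf in CD31WT was 27.1% of that in PDGWT.

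The DUX4 effect was more positive in CD31 than in PDG cells for 289 genes (1.7%) and more negative for 94 (0.553%). Of the 289, 12 were FAP markers. Reln, described above, fell in FAPs and rose in CD31 cells, with a difference of 4.11 ± 0.41 (adjusted p = 0.000102, edgeR). Sox9, a transcription factor of cartilage and matrix-forming cells, did the same: it stood at 42, 41.3, 39.9 and 42.4 CPM in CD31DUX and at 20.5, 17.9 and 18.2 CPM in CD31WT, against 63.4 to 98.8 CPM in PDGDUX and 127 to 183 CPM in PDGWT. The difference for Sox9 was 2.11 ± 0.23 (adjusted p = 0.000268, edgeR).

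Slc38a4, an amino acid transporter, stood at 42, 27.9, 54.2 and 25.7 CPM in CD31DUX and at 15.9, 7.39 and 5.08 CPM in CD31WT. It was at 0 in all 4 PDGDUX libraries and at 7.17, 10.6 and 9.18 CPM in PDGWT. Its rise in CD31 cells was 1.98 ± 0.40 (adjusted p = 0.0115, edgeR).

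Nos3, the endothelial nitric oxide synthase, and Ecscr, a surface protein of endothelium, had effects that differed between the sorts (differences of 1.85 ± 0.40 and 1.5 ± 0.28, adjusted p of 0.0226 and 0.00822 in edgeR) without a call in CD31 cells. Nos3 stood at 239 to 330 CPM in CD31DUX and 352 to 560 CPM in CD31WT (log2 -0.59 ± 0.25, not called), and at 1.29 to 3.89 CPM in PDGDUX and 9.01 to 15.6 CPM in PDGWT. Ecscr stood at 187 to 228 CPM in CD31DUX and 192 to 204 CPM in CD31WT (log2 0.08 ± 0.18), and at 2.35 to 3.86 CPM in PDGDUX and 6 to 11.6 CPM in PDGWT. Of the 24 pan-endothelial genes, 7 were called lower in the FAP sort (background 1.77%) and 0 higher. Their summed level there was 339 to 501 CPM in PDGDUX and 521 to 656 CPM in PDGWT. The part of this carried endothelial RNA in the differences of Nos3 and Ecscr was not tested.

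**Figure D4:**
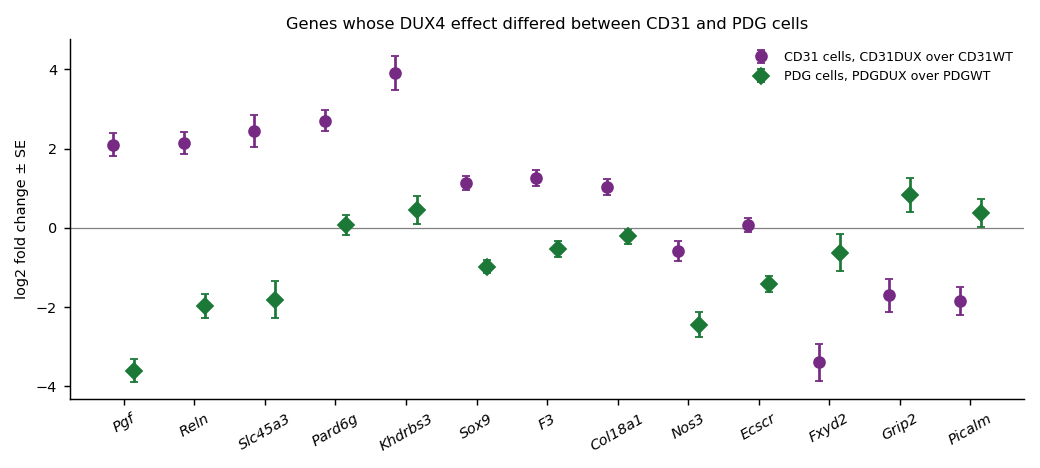
Log2 fold change with its SE of genes whose DUX4 effect differed between the sorts, for CD31DUX over CD31WT (circles) and PDGDUX over PDGWT (diamonds). Pgf lies at 2.11 in CD31 cells and -3.61 in PDG cells, and Reln at 2.14 in CD31 cells and -1.97 in PDG cells.

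Outside the lists, the largest rises on the CD31 side among called genes included Pard6g and Slc45a3. Pard6g, a cell polarity protein, stood at 195, 142, 179 and 114 CPM in CD31DUX and at 16.8, 38.2 and 17.2 CPM in CD31WT, and at 13.1 to 16 CPM in every PDG library. It rose by 2.71 ± 0.27 (adjusted p = 1.8e-05, edgeR), and the difference from FAPs was 2.63 ± 0.36 (adjusted p = 0.00112, edgeR). Slc45a3, a membrane transporter, stood at 86.5, 61.8, 73 and 58.7 CPM in CD31DUX and at 18.5, 14.7 and 5.38 CPM in CD31WT, a rise of 2.44 ± 0.41 (adjusted p = 0.00154, edgeR). Neither gene overlapped between the groups.

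Picalm, a clathrin adaptor, fell on the CD31 side. It stood at 10.3, 8.8, 10.4 and 6.1 CPM in CD31DUX and at 36.4, 19.5 and 40 CPM in CD31WT, and fell by 1.84 ± 0.35 (adjusted p = 0.00434, edgeR).

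FAP markers were higher in CD31DUX as a group: 16 of 19 were called higher (background 3.72%), 0 lower, and the median log2 fold change was 1.36. In the FAP sort itself 2 of the 19 were called higher (background 1.23%), with a median of 0.209. Dcn, the matrix proteoglycan decorin, stood at 4330, 5830, 5170 and 5130 CPM in CD31DUX and at 2360, 1560 and 2040 CPM in CD31WT (log2 1.36 ± 0.15, adjusted p = 3.94e-05, edgeR). Pdgfra, the receptor used to sort FAPs, stood at 119, 198, 139 and 147 CPM in CD31DUX and at 68.7, 39.2 and 30 CPM in CD31WT (log2 1.71 ± 0.25, adjusted p = 0.000594, edgeR). The groups did not overlap for either gene.

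Has1, a hyaluronan synthase, stood at 1010, 1370, 1140 and 1480 CPM in CD31DUX and at 224, 207 and 156 CPM in CD31WT, a rise of 2.68 ± 0.18 (adjusted p = 3.93e-07, edgeR). Smoc2, a calcium-binding matrix protein, stood at 1490, 1760, 1810 and 1910 CPM in CD31DUX and at 450, 397 and 312 CPM in CD31WT, a rise of 2.18 ± 0.17 (adjusted p = 1.79e-06, edgeR). Ly6a, Pi16 and Hsd11b1 were the markers that did not pass, with log2 fold changes of -0.46, 0.45 and 0.00.

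As a percentage of the FAP level of the same genotype, the 19 markers ran in CD31DUX from 12.5% through a median of 20.8% to 63.9%, and in CD31WT from 4.8% through 8.05% to 97.1%. Ly6a, which endothelial cells also express, was the highest in both genotypes and alone sets the upper ends of these ranges. The next highest in both was Mfap4, at 32.5% in CD31DUX and 17.8% in CD31WT. Genes called higher in CD31DUX that lay within the range of their genotype in both included Mmp3, a matrix protease (21% in CD31DUX and 8.58% in CD31WT), and F3, tissue factor (20% in CD31DUX and 5.77% in CD31WT). Khdrbs3, an RNA-binding protein, lay within it in CD31DUX (27.4%) and below it in CD31WT (2.49%). Tac1, which encodes the peptide substance P, stood at 14.4% in CD31DUX and 7.29% in CD31WT. Col18a1, a basement membrane collagen, stood above the range in CD31DUX (69.2%, against 29% in CD31WT).

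**Figure D5:**
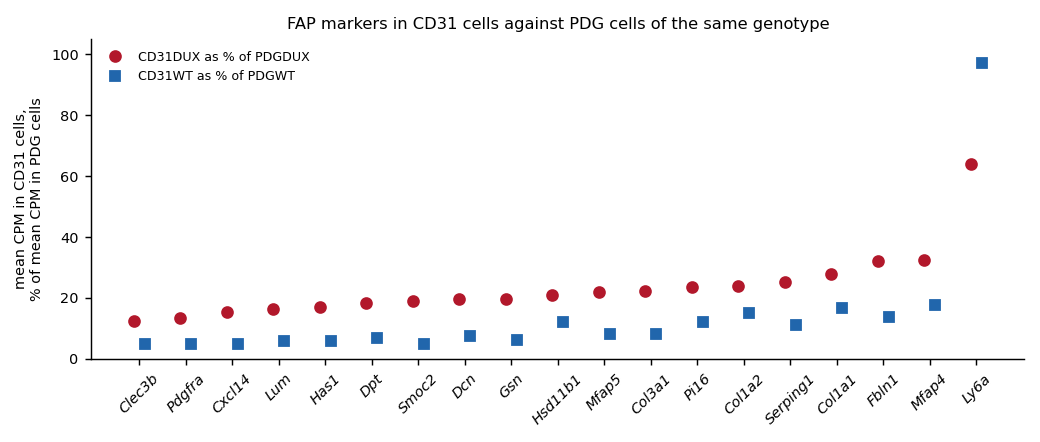
Mean CPM of 19 FAP markers in CD31 cells as a percentage of the mean in PDG cells of the same genotype, for DUX4 (circles, CD31DUX over PDGDUX) and WT (squares, CD31WT over PDGWT). The median marker lies at 20.8% in DUX4 and at 8.05% in WT, and Ly6a is the highest of both, at 63.9% in DUX4 and 97.1% in WT.

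Genes of the basement membrane, the matrix sheet under endothelium that FAPs also produce, showed 6 of 14 members higher (background 3.72%), 0 lower and a median of 0.419. Nid1, a linker protein of that sheet, stood at 641, 654, 557 and 722 CPM in CD31DUX and at 462, 337 and 270 CPM in CD31WT (log2 0.85 ± 0.19, adjusted p = 0.0137, edgeR), and at 2100 to 2880 CPM in PDGDUX. Col18a1 rose by 1.04 ± 0.20 (adjusted p = 0.00503, edgeR), and Col15a1, Nid2 and the laminin chains Lamb1 and Lamc1 were also called. Of the 6 calls 1 remained, Col18a1, without CD31WT replicate 3. In 2 of the 14 genes, Col18a1 and Nid1, the effect was called more positive than in FAPs.

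In the TGF-beta and BMP pathway, whose ligands act on endothelium through receptors that include Acvrl1, 2 of 19 genes rose (background 3.72%) and 2 fell (background 1.35%). The ligand Tgfb2 rose by 1.46 ± 0.18, standing at 35.2, 42.9, 55.2 and 42.4 CPM in CD31DUX and at 19.1, 12.8 and 16.1 CPM in CD31WT. The receptor Tgfbr2 rose by 1.20 ± 0.15, standing at 322, 334, 329 and 308 CPM in CD31DUX and at 166, 136 and 118 CPM in CD31WT. Both are higher in FAPs, and Tgfbr2 had an effect more positive than in FAPs by 0.90 ± 0.20 (adjusted p = 0.0264, edgeR).

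Id1, a target of BMP signalling, stood at 192, 261, 244 and 238 CPM in CD31DUX and at 433, 595 and 541 CPM in CD31WT, and fell by 1.16 ± 0.17 (adjusted p = 0.000584, edgeR). The highest CD31DUX library lay well below the lowest CD31WT library. Acvrl1, a BMP receptor of endothelium, was called lower by 0.45 ± 0.12 (adjusted p = 0.0453, edgeR), and kept the call in 1 of the 7 refits that left out 1 library, the one without CD31DUX replicate 1 (up to 0.232 in the rest). Klf4, a transcription factor induced by flow, fell by 0.56 ± 0.15 (adjusted p = 0.0409, edgeR) and kept the call only without CD31DUX replicate 3 or CD31WT replicate 1 (up to 0.245 in the rest). In the same list of flow-responsive and anticoagulant genes, Pros1, the anticoagulant protein S, and F3 were called higher.

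Contractile genes of smooth muscle, which wraps arteries and veins, fell in CD31DUX. In a list written after values were seen, 6 of 12 were called lower (background 1.35%) and 0 higher, with a median log2 fold change of -1.09. In 8 of the 12 every CD31DUX library lay below every CD31WT library (background 8.18%). Acta2, smooth muscle actin, stood at 114, 112, 98.2 and 165 CPM in CD31DUX and at 306, 320 and 345 CPM in CD31WT (log2 -1.40 ± 0.23, adjusted p = 0.0015, edgeR). Myh11, the myosin heavy chain of smooth muscle, stood at 43.2, 76.1, 69.7 and 84.4 CPM in CD31DUX and at 215, 260 and 184 CPM in CD31WT (log2 -1.68 ± 0.29, adjusted p = 0.00234, edgeR). Myl9, a regulatory myosin light chain, fell by 1.56 ± 0.22 (adjusted p = 0.000322, edgeR). In these 3 genes no CD31DUX library reached the CD31WT range.

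The same list showed 4 of 12 genes lower in the FAP sort (background 1.77%). In whole muscle 4 were lower at 2 weeks (background 6.47%) and 2 at 16 weeks (background 12.5%). Mural cell markers per 100 CPM of pan-endothelial genes were 8.43 to 14.2 CPM in CD31DUX and 14.5 to 16.4 CPM in CD31WT. The CArG box, the site of serum response factor in contractile genes, was searched as CC, 6 letters of A or T, then GG, a pattern that reads the same on both strands. In the 200 bases before RefSeq starts (GRCm38.p6) an exact match was found in 1 of the 10 contractile genes with an entry, Myl9, and in 1.32% of 27025 genes. Runs that differ from the pattern by 1 letter were not counted. Acta2 holds such runs, ccctatatgg and ccttgtttgg, so a gene without an exact match may still carry a site. The match in Myl9 is shown because it is the only exact one in the list, with 10 bases on each side and the box in capitals. Its first base lies 161 bases before the start, in the window chr2:156775293-156775322 on the plus strand.
Myl9: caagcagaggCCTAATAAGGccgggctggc

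Heat shock genes, which encode chaperones that keep proteins folded, were lower in CD31DUX. Of 11 genes, 4 were called lower (background 1.35%) and 0 higher, and the median log2 fold change was -0.503. In 8 of the 11 every CD31DUX library lay below every CD31WT library (background 8.18%). Hspb1, a small chaperone (chromosome 5, 135887919 to 135889563), stood at 771, 966, 765 and 870 CPM in CD31DUX and at 1660, 1320 and 2010 CPM in CD31WT. It fell by 0.98 ± 0.19 on the log2 scale (adjusted p = 0.00446, edgeR), and the call held in all 7 refits that left out 1 library.

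Hsp90aa1, the inducible form of HSP90, stood at 896, 1350, 1190 and 1260 CPM in CD31DUX and at 1970, 1670 and 2260 CPM in CD31WT (log2 -0.74 ± 0.15, adjusted p = 0.0079, edgeR). Its call was lost without CD31WT replicate 3, at an adjusted p of 0.0696 in edgeR. Hsp90ab1 and the HSP70 partner Dnajb1 were called at 0.0344 and 0.0444, and each kept the call only without CD31WT replicate 1. The inducible HSP70 gene Hspa1a, whose reads may be shared with its copy Hspa1b, stood at 2300, 3620, 3130 and 2840 CPM in CD31DUX and at 4660, 5930 and 5000 CPM in CD31WT, with no overlap, and did not pass (log2 -0.81 ± 0.23, adjusted p = 0.0566, edgeR).

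The pan-endothelial scale called 0 heat shock genes and the Y-linked covariate 1, and 2 were called without any one of the CD31DUX libraries or without CD31WT replicate 2, and 1 without CD31WT replicate 3. In the FAP sort 3 of the 11 genes were called lower (background 1.77%) and 0 higher. In whole muscle the direction was the other way at 2 weeks, with 5 of 11 higher (background 11.2%) and 0 lower, and 0 were called at 16 weeks. The heat shock factor binds inverted repeats of GAA, searched here as GAANNTTC, which reads the same on both strands. It lay within 200 bases before the RefSeq start of 6 of the 8 listed genes with an entry, and of 6.22% of 27025 genes. Hspd1 and Hspe1 share a single match between their divergent starts.

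Promoter sequences of Hspb1, which was called lower, and of Hspa1a, which did not pass the test, were picked after values were seen. They are given 5′ to 3′ up to the base before the start, with each match in capitals. The Hspb1 sequence lies at chr5:135887719-135887918 on the plus strand and that of Hspa1a at chr17:34972157-34972356 on the minus strand. The first bases of the matches lie 117 and 97 bases before the start of Hspb1 and 104 bases before that of Hspa1a.
Hspb1: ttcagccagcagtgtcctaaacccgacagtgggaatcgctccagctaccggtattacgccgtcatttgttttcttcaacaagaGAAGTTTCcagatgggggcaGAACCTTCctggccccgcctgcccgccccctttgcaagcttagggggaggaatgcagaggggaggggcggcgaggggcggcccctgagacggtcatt
Hspa1a: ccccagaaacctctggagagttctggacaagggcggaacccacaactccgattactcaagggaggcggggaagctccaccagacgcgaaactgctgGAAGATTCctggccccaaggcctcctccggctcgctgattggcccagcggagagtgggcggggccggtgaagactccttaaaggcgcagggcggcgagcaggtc

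Other stress genes held few calls (background 3.72% higher and 1.35% lower). Cdkn1a, the p53 target p21, which also responds to other stresses, stood at 845, 1220, 1070 and 1000 CPM in CD31DUX and at 1810, 1840 and 2440 CPM in CD31WT, and fell by 0.97 ± 0.16 (adjusted p = 0.00172, edgeR). Of 15 p53 targets it was the only one lower, and Ccng1 the only one higher (log2 0.77 ± 0.21, adjusted p = 0.0458, edgeR; lost in 5 refits that left out 1 library, at up to 0.108). Ccng1 kept its call only without CD31DUX replicate 4 or CD31WT replicate 3. In the integrated stress response, Ddit3 and Ddit4 were lower and 9 of 11 genes were not called. The call of Ddit3 was lost without CD31WT replicate 3, at an adjusted p of 0.0742 in edgeR, and that of Ddit4 without CD31DUX replicate 2, CD31DUX replicate 3 or CD31WT replicate 3 (up to 0.16). Of 18 cell cycle genes edgeR called 0 (3 at an unadjusted p under 0.05, 2 higher by DESeq2 and 1 by limma), and of 14 immediate early genes 0 (2 at an unadjusted p under 0.05, 1 lower by each of the other tools).

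Among the remaining lists, Thbs4, a matrix thrombospondin of tendon and muscle, was the clearest call. It stood at 1160, 1330, 1110 and 1680 CPM in CD31DUX and at 484, 409 and 348 CPM in CD31WT, and rose by 1.68 ± 0.18 in CD31 cells (adjusted p = 2.64e-05, edgeR) and by 1.58 ± 0.18 in FAPs, where it is more abundant. It was the only one of 6 tendon genes called (background 5.07% in either direction). In glycolysis and hypoxia, 2 of 15 genes were called (the same background): hexokinase Hk2 rose (log2 1.56 ± 0.21) and the mitophagy receptor Bnip3 fell (log2 -0.82 ± 0.16). Mean Hk2 in CD31DUX was 15.3% of that in PDGDUX, and in CD31WT 7.82% of that in PDGWT. Both lie within the range of the FAP markers given above.

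In the list of endothelial to mesenchymal change, 2 of 12 genes rose (background 3.72%), the transcription factors Twist1 and Sox9. Another 2 fell (background 1.35%), Acta2 and Tagln. Tagln kept its call only without CD31DUX replicate 4 (adjusted p at most 0.166 in the rest, edgeR). Both risers are more abundant in FAPs. Mural cell markers gave 4 falls of 12 (background 1.35%), all of them contractile genes (Acta2, Myh11, Tagln and Mylk). They gave 1 rise (background 3.72%), the receptor Pdgfrb (log2 1.07 ± 0.16), which FAPs also express. Tip cell genes gave 3 rises of 14 (background 3.72%): Pgf, Nid2 and Lamb1. Only Pgf kept its call in all 7 refits that left out 1 library. Nid2 kept it without CD31DUX replicate 1 or CD31WT replicate 2 (at most 0.134 in the rest, edgeR), and Lamb1 lost it without CD31WT replicate 3 (0.0787), where 1 tip cell gene was called. DESeq2 and limma each called 4 of the 14 higher. Mean Lamb1 in CD31DUX was 27.1% of that in PDGDUX, and in CD31WT 13.7% of that in PDGWT, both within the range of the FAP markers.

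Most single calls in other lists (background 3.72% higher and 1.35% lower) were lost when a library was left out. The chemokine Ccl7 (1 of 14 leukocyte adhesion genes, higher) lost its call without CD31WT replicate 3. Mean Ccl7 in CD31DUX was 13.2% of that in PDGDUX, and in CD31WT 6.77% of that in PDGWT, both within the range of the FAP markers. The myelin gene Ncmap (1 of 8 Schwann cell genes, lower), the respiratory subunit Cox4i1 (1 of 16, lower) and the clock gene Per1 (1 of 13, lower, and with Cdkn1a 2 of 10 glucocorticoid targets) each lost the call in 5 of 7 refits that left out 1 library. The clock gene Npas2 (1 of 13, higher) lost it in 3. Schwann cell genes as a list lay lower in CD31DUX, at a summed 107 to 144 CPM against 187 to 273 CPM in CD31WT. In 6 of the 8 every CD31DUX library lay below every CD31WT library (background 8.18%). An unadjusted edgeR p under 0.05 was found for 5 of them, all lower, and DESeq2 called 2 lower and limma 4. EdgeR called 0 of 12 class I genes, 13 fatty acid oxidation genes, 8 satellite cell genes, 7 platelet and red cell genes and 5 lymphocyte and granulocyte genes. At an unadjusted p under 0.05 the counts of these 5 lists were 2, 2, 1, 3 and 2. DESeq2 called 1 class I gene and 1 satellite cell gene lower, and limma 1 satellite cell gene lower.

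The count of mitochondrially encoded genes, which code for subunits of the respiratory chain, turned on a single library. They summed to 5920, 6920, 5520 and 7200 CPM in CD31DUX and to 11200, 5250 and 12300 CPM in CD31WT, where replicate 2 lay below every CD31DUX library. Of 12 genes 1 was called lower (background 1.35%), mt-Nd3, and 9 had an unadjusted p under 0.05, all of them lower. Without CD31WT replicate 2 the number called lower was 10, with a median log2 fold change of -0.867. It was 0 without any other single library, DESeq2 called 1 lower and limma 0.

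The 6 DUX4-responsive genes of mouse muscle were read in place of the human DUX4 transcript, which was not analysed here. Their list was chosen with earlier results of these data known, so its calls in whole muscle are no independent check. In the WT libraries 0 of the 6 were at least as high in CD31 cells as in FAPs. Whether these genes report DUX4 in endothelium was not tested. In CD31 cells 0 of 6 were called by edgeR, DESeq2 or limma, 1 had an unadjusted p under 0.05, and all 6 overlapped between the groups. Without CD31WT replicate 1, edgeR called 1 of the 6 higher. Wfdc3, the gene with the largest rise of the 6 in whole muscle, stood at 0.549, 0.263, 0.24 and 0.261 CPM in CD31DUX and at 1.3, 0.448 and 0.177 CPM in CD31WT. Each of the 6 was called higher in whole muscle at both 2 and 16 weeks (background 11.2% and 14.1%), with Wfdc3 up by 8.14 and 8.52 on the log2 scale. The summed level of the 6 was 77.5 to 93.3 CPM in CD31DUX and 61 to 73.1 CPM in CD31WT.

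Genes expressed in dendritic cells and phagocytes were in part higher in CD31DUX. In a list of 10 dendritic cell and phagocyte genes written after values were seen, 7 were called higher (background 3.72%) and 0 lower, or 4 higher without CD31WT replicate 3. The list summed to 330, 605, 467 and 813 CPM in CD31DUX and to 178, 345 and 81.4 CPM in CD31WT, so that the groups overlapped, and to 573 to 898 CPM in PDGDUX and 345 to 418 CPM in PDGWT. In the WT libraries 4 of the 10 genes were at least as high in CD31 cells as in FAPs, among them 1 of the 7 called, the dendritic cell surface protein Cd83. FAP markers also rose in CD31DUX, as given above, and their part in this result was not tested. The protease Ctsk averaged 134 CPM in CD31DUX and 25.7 CPM in CD31WT, against 438 CPM in PDGDUX and 205 CPM in PDGWT. Itgax, the integrin CD11c of dendritic cells, stood at 7.03, 17.6, 12.7 and 18.6 CPM in CD31DUX and at 0, 0.112 and 0 CPM in CD31WT. With 2 counts in CD31WT, its ratio was 385 (95% counting interval 106 to 3180). Mgl2, a lectin of dendritic cells and macrophages, stood at 25.7, 20.9, 22.4 and 11.3 CPM in CD31DUX and at 1.97, 2.18 and 1 CPM in CD31WT (log2 3.54 ± 0.65, adjusted p = 0.00358, edgeR).

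Antigen presentation by class II molecules is a task of dendritic cells. Class II genes summed to 1450, 1950, 2520 and 1890 CPM in CD31DUX and to 823, 132 and 200 CPM in CD31WT. Of the 7 genes 6 had every CD31DUX library above every CD31WT library (background 9.89%). Only 1 was called, H2-DMa (background 3.72%), and 4 were called without CD31WT replicate 1. All 7 had an unadjusted p under 0.05 and were higher, DESeq2 called 4 higher and limma 6. The call of H2-DMa (adjusted p = 0.0457, edgeR) was lost in 5 of the 7 refits that left out 1 library, at up to 0.177. It held without CD31DUX replicate 1 or CD31WT replicate 1.

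Macrophage markers showed the same dependence, with 0 of 12 called by edgeR (3 at an unadjusted p under 0.05, 0 by DESeq2 and 7 higher by limma) and 4 called without CD31WT replicate 1. Their sum was 855, 1560, 1440 and 1140 CPM in CD31DUX and 910, 148 and 200 CPM in CD31WT, where replicate 1 lay within the CD31DUX range. Interferon response genes gave 1 call of 22 in CD31 cells (background 3.72% higher), Ifit2 (log2 1.06 ± 0.24, adjusted p = 0.0173, edgeR). In the FAP sort 6 of 22 were higher (background 1.23%). No difference of effect between the sorts was called in that list. At 16 weeks 14 of the 22 were higher in whole muscle (background 14.1%).

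Muscle genes were also higher in CD31DUX. In a list of regenerating and early muscle genes written after values were seen, 5 of the 11 tested were called higher (background 3.72%) and 0 lower. In the FAP sort 2 were called higher (background 1.23%) and 0 lower, and no difference of effect between the sorts was called. In whole muscle 8 of 12 were higher at 2 weeks (background 11.2%) and 7 at 16 weeks (background 14.1%), with 1 lower at each time. Myog, the regulator of muscle differentiation, stood at 5.33, 5.95, 17.8 and 15.3 CPM in CD31DUX and had 2 counts over the 3 CD31WT libraries, a ratio of 312 (95% counting interval 86 to 2580). Mstn, the growth inhibitor myostatin, stood at 5.16, 4.11, 8.56 and 6.58 CPM in CD31DUX and at 0 in CD31WT, at least 36.6-fold higher (3 counts per library as the floor).

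Sln, a regulator of the muscle calcium pump, stood at 14.9, 30, 15.7 and 20.8 CPM in CD31DUX and at 2.49, 0.504 and 1.71 CPM in CD31WT. It rose by 3.69 ± 0.55 in CD31 cells (adjusted p = 0.000641, edgeR), by 4.52 ± 0.65 in FAPs, and by 4.80 and 4.61 in whole muscle at 2 and 16 weeks. Genes of mature fibres summed to 425 to 1190 CPM in CD31DUX and 125 to 326 CPM in CD31WT, and 1 of 10, Tnnc2, was called higher (background 3.72%). DESeq2 called 5 of them higher and limma 3, and 8 had an unadjusted p under 0.05, all of them higher. Tnnc2 lost its call in 4 refits that left out 1 library, CD31DUX replicates 1 and 2 and CD31WT replicates 2 and 3 (adjusted p at most 0.075).

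The 10 largest falls among called genes with at least 5 CPM were led by kidney genes, which are not markers of muscle endothelium. Of 13 kidney tubule genes tested, 6 were called lower (background 1.35%), in a list written after values were seen. Kap, a kidney androgen-regulated protein, stood at 1.1, 4.11, 0.192 and 0 CPM in CD31DUX and at 266, 35.9 and 90.2 CPM in CD31WT. Miox, an oxygenase of the kidney cortex, stood at 0.549, 0.474, 0.144 and 0 CPM in CD31DUX and at 31.8, 18.5 and 35.1 CPM in CD31WT. Ugt2b38 was at 0 in all 4 CD31DUX libraries, at least 53.3-fold lower than in CD31WT. Kap was also present at 35.8 CPM in PDGWT replicate 2, a FAP library.

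Genes of 2 nerve peptides moved in opposite directions. Tac1 stood at 70.8, 84.8, 69.6 and 96.1 CPM in CD31DUX and at 7.31, 6.1 and 4.85 CPM in CD31WT, a rise of 3.72 ± 0.22 (adjusted p = 9.55e-08, edgeR). It rose by 2.74 ± 0.20 in FAPs as well. Gal, the neuropeptide galanin, stood at 7.75, 14, 8.85 and 10.3 CPM in CD31DUX and at 82.3, 80.3 and 90.4 CPM in CD31WT, and fell by 3.04 ± 0.28 (adjusted p = 7.44e-06, edgeR). In FAPs Gal fell by 2.61 ± 0.29, with 1.71 to 4.54 CPM in PDGDUX and 15.9 to 27.8 CPM in PDGWT. The list that holds both, with the neuropeptide Y receptor Npy1r, was written after values were seen.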

How the data were processed

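RNA-seq libraries of CD31-sorted cells (CD31DUX, n = 4; CD31WT, n = 3) were compared, with the FAP libraries (PDGDUX, n = 4; PDGWT, n = 3) in the same fit. Per the submitters' processing notes, the tools were CASAVA 1.8 and Salmon 0.6.0 and the build mm10. What the authors deposited for each library is a table of estimated counts, without scaling, over 43035 Ensembl genes. Gene symbols (42459 genes) and positions are from GENCODE vM21 on GRCm38, and promoter sequences from RefSeq on GRCm38.p6. Salmon shares reads between transcripts by estimation, so counts of near-identical genes are uncertain, and library strand is not used here.

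After rounding, edgeR 4.0.16 (R 4.3.3) fitted 1 mean per group by quasi-likelihood in its robust form, with TMM scaling, to the genes that passed filterByExpr at a minimum of 10 counts. P-values were adjusted over all tested genes (Benjamini-Hochberg), and calls were made below 0.05. SEs were derived from each gene's fold change and F statistic. The difference between sorts is the interaction term. Whole muscle (18 libraries) was fitted separately. List counts are over tested members. A count of 0 allows 3 counts per library, and intervals and floors cover counting error only. The procedure was tested on simulated counts.

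Alternatives were DESeq2 1.42.0, limma voom (limma 3.58.1), relative log expression factors, no filter, a filter of 50 counts in 3 libraries, a minimum fold of 1.5, the 7 CD31 libraries alone, a FAP marker covariate, a Y-linked gene covariate, other borders of the split, each library left out, and, added after the data were seen, a pan-endothelial scale. The FAP marker covariate and the pan-endothelial scale were applied to the 7 CD31 libraries alone. Replicates are numbered in order of accession.

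The libraries, the 39 gene lists (456 genes) and the rules were chosen with earlier results of these data known. Another 7 lists, those of kidney tubule and podocyte, dendritic cell and phagocyte, regenerating muscle, contractile smooth muscle, CCL21 copies and nerve peptide genes, and the motifs, were written after values were seen. Of the 3 podocyte genes 1 was tested and 0 were called. By the naming rule, genes were named if they were among the 10 largest rises or falls of called genes with at least 5 CPM, overall or on the CD31 side, the 2 called members of a list with the smallest p, any pan-endothelial or DUX4-responsive gene, or the 4 largest differences between sorts in each direction. The text prints some of these, and other list members it names were chosen after their values were seen. A gene named by the rule, and the list result that rests on it, are not reported here.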

Additional observations from a re-analysis of the deposited data

Results flagged for a closer look

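A library was said to stand apart in the 4 CD31DUX libraries when its gap to the nearest other library was a large share of the range (Dixon's 95% test). Chance does this in about 1 of 20 groups, and it was met by 10 of 145 values. The summed lymphatic level was 7040 CPM in CD31DUX replicate 3, against 4360 to 4630 CPM in the other CD31DUX libraries, and Lyve1 stood at 875 CPM there, against 563 to 613 CPM. Pdgfrb, a receptor of mural cells and fibroblasts, was lowest in the same library at 155 CPM, against 187 to 191 CPM. Tek, the angiopoietin receptor, was at 397 CPM in CD31DUX replicate 1, against 246 to 256 CPM. The basement membrane sum was 8210 CPM in CD31DUX replicate 4, against 7010 to 7160 CPM, and the p53 target sum 2720 CPM in CD31DUX replicate 2, against 2370 to 2410 CPM. Wfdc3 stood at 0.549 CPM in CD31DUX replicate 1, against 0.24 to 0.263 CPM. The kidney genes Keg1 (0.158 CPM, replicate 2), Slc34a1 (0.263 CPM, replicate 2) and Ugt3a2 (0.289 CPM, replicate 3) were each at 0 in the other CD31DUX libraries. These levels lie within a few counts of 0.

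The DUX4 effect differed between CD31 and PDG cells for 21 of 101 named genes by the interaction test. On the log2 scale, as the CD31 effect minus the PDG effect, the difference was 5.72 for Pgf, 4.25 for Slc45a3, 4.11 for Reln, 3.45 for Khdrbs3 and 2.63 for Pard6g. It was 2.11 for Sox9, 1.97 for Smoc2, 1.86 for Nos3, 1.8 for F3, 1.54 for Has1, 1.5 for Ecscr, 1.25 for Col18a1 and 0.90 for Tgfbr2. It was negative for Picalm (-2.22), Grip2 (-2.55) and Fxyd2 (-2.77). Mean Fxyd2 in CD31WT was 585% of that in PDGWT, and mean Fxyd2 in CD31DUX was 85.7% of that in PDGDUX. All 3 CD31WT libraries held kidney tubule genes, as given above, and the part of that RNA in the Fxyd2 difference was not tested. Slc38a4 (adjusted p = 1e-04, edgeR), Megf6 (0.000988), Chek2 (0.0127), Hdac9 (0.0277) and Gpr165 (0.0455) also differed. Each of these 5 genes had a group with 3 counts or fewer, so that no fold is given.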

How the results depend on the processing

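The main counts were 863 genes called, 245 of them on the CD31 side, and 383 genes whose effect differed between the sorts. In that order DESeq2 gave 1460, 497 and 824. On the CD31 side limma voom called 461 genes. A minimum fold of 1.5 left 309 genes in all and 48 on the CD31 side. The 7 CD31 libraries alone gave 715 in all and 302 on the CD31 side. On those 7 libraries the FAP marker covariate left 5 and 4, and the pan-endothelial scale, added after the data were seen, gave 2857 and 716. The Y-linked covariate gave 450, 83 and 239 in the order above. Requiring CD31WT to be at least 2 or 4 times PDGWT left 153 or 93 calls on the CD31 side. Leaving out each library in turn gave 520 to 1091 calls in all, 80 to 289 on the CD31 side and 256 to 541 differing effects. The cause of these moves was not tested, except that a minimum fold and a stricter border are narrower by construction. No paired analysis was possible because the titles number the libraries on across groups, so that the groups share no number.

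Of 101 named genes, 68 were called. Over 1608 alternatives for single genes, 1327 kept direction and call, 191 lost the call, 25 gained it and 65 changed direction; none of the 65 was called after the change. Under the FAP marker covariate the log2 fold changes that turned were Mmp3 -0.93, Sln -0.59, Pik3r5 -2.66, Sgsm1 -0.45, Tgfb2 -0.026, F3 -1.49, Ifit2 -0.87, H2-DMa -2.98, Hk2 -1.14, Slc38a4 -1.16, Sord -1.11, Ilvbl -0.73 and Clec14a -0.33, and, upward, Ncmap 0.60, Ddit3 0.44, Ddit4 0.15, Tek 0.28, Pecam1 0.28, Sox17 1.49, Eng 0.21, Egfl7 0.34, Nos3 0.41, Flt1 0.13, Robo4 0.84, Tie1 0.0040, Cldn5 0.62, Mmrn2 0.54, Sox18 2.08, Kdr 0.34 and Sox7 1.31. Under the pan-endothelial scale they were Icam2 0.17, Tek 0.23, Pecam1 0.032, Sox17 0.021, Eng 0.31, Tal1 0.065, Robo4 0.025, Tie1 0.014, Cldn5 0.42, Mmrn2 0.23, Kdr 0.020, Sox7 0.12 and Chek2 0.29. With limma voom, Agtrap was -0.016, Clec14a -0.045 and Chek2 0.20. With the Y-linked covariate, Ilvbl was -0.11, Cldn5 0.34 and Clec14a -0.33. Cldn5 was 0.0071 with no filter, and Ilvbl was -0.0099 with the stricter one. Leaving out single libraries gave -0.12 to 0.12 for Cldn5, -0.17 to 0.36 for Clec14a, -0.11 to 0.15 for Ilvbl, -0.068 to 6.17 for Serpinb6c, -0.14 to 0.31 for Agtrap, -1.37 to 0.086 for Wfdc3 and -0.67 to 0.27 for Chek2.

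By list, the calls outside the FAP covariate, which left 0 in each of these lists, ran from 15 to 17 for FAP markers, 2 to 7 for lymphatic genes, 1 to 11 for capillary genes, 4 to 6 for contractile genes and 0 to 6 for heat shock genes. At these depths genes near 0.131 to 0.177 CPM cannot be told from absent.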
